A study of Mus musculus with 4 samples.

Results

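The genes described here are 57 named genes, measured by 61 probe sets, whose intensity differed by at least 2-fold between Stk40 KO and WT fetal livers and rose above the noise of the array. They were taken from a table of 1467 probe sets that passed a 2-fold rule, out of 45101 probe sets on the array. A probe set entered when the table gave it 1 gene symbol and when its mean over the 2 Stk40 KO or the 2 WT arrays exceeded 143, the size under which 95% of the negative intensities lay. Of 94 such probe sets, 33 were left aside because they carry one of 28 symbols that the rule leaves out, among them genes of the urea cycle, iron handling and neutrophil granules. The choice therefore used the Stk40 KO against WT contrast itself, and the intensities below are a description of the genes it picked, with no test. Stk40 encodes a serine/threonine kinase family protein, and the study asked which transcripts differ in the liver of mouse embryos that lack it. Both groups were C57BL/6J embryos at E14.5, in mid-gestation, from matings of heterozygous parents. The Stk40 KO group carried a conventional knockout, present in every cell of the embryo, and the WT group carried no knockout allele. Each genotype had 2 Affymetrix arrays, each hybridized with total RNA pooled from 6 livers of that genotype, so a value is an average over 6 embryos and differences between single livers cannot be seen.

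At mid-gestation the mouse liver is the main site of blood formation, so its RNA comes mostly from erythroid cells, with smaller shares from granulocytes, macrophages, hepatoblasts, endothelium and the mesenchyme around them. Hepatoblasts at this stage begin to switch on the enzymes and transporters of the mature liver, while granulocytes load their granules and cytosol with antimicrobial proteins and protease inhibitors. Mesenchymal and stellate cells lay down collagen, which needs a chaperone inside the cell and a crosslinking enzyme outside it. In RNA of a whole organ, fewer cells of a type and less RNA per cell cannot be told apart, and this holds for every gene below.

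Of the 61 probe sets, 54 were higher and 7 were lower in Stk40 KO livers, which is 50 genes and 7 genes. By a reading of the study's 2-fold rule, 3.8% of 32833 probe sets that could be judged were higher and 1.57% lower in Stk40 KO. This reading dropped probe sets negative on every array or of opposite sign between the 2 arrays of a genotype. The removal of genes found in both directions was not applied. The reading passed 1247 higher and 516 lower probe sets, so it is not exactly the rule behind the table of 1467. Among 12773 probe sets whose mean exceeded the noise level in either genotype, 0.705% were at least 2-fold higher and 0.117% at least 2-fold lower. The ratios of mean intensity, Stk40 KO over WT, of the 54 higher probe sets lay between 2.02 and 39.1 with a median of 2.34. The 7 lower ones were 2.21-fold to 17.2-fold lower, with a median of 5.28. In 36 of the 54 higher probe sets both WT arrays were under the noise level, so a fold is written below as "at least", with the noise level in place of the dim genotype. With such probe sets at this bound the median was 1.59-fold for the higher and 2.38-fold for the lower ones. Only 13 of the 54 higher and 2 of the 7 lower probe sets were above noise on all 4 arrays.

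The arrays were not on one scale. The 75th percentile of positive intensities was 266 and 263 for Stk40 KO, against 205 and 246 for WT. The median log2 difference, Stk40 KO minus WT, was 0.18 as deposited over the 12600 probe sets tested, and -0.04 over 12319 after the 75th percentiles had been made equal. With equal 75th percentiles, 28 of the 54 higher and 7 of the 7 lower probe sets were still at least 2-fold apart, beside 0.415% and 0.133% of the 12773 probe sets with a mean above noise. Also, 54 of 54 were at least 1.5-fold higher, and the median of the higher ones was 2.01. The direction of all 61 ratios was the same under both scalings. The plot of ratios under both scalings shows the shift. Stk40 itself, whose probe set checks the genotype labels, read -98.9 and -111 in Stk40 KO livers, against 59.9 and 52.2 in WT livers. All 4 of these values were under the noise level, with the WT values the higher ones.

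**Figure D1:**
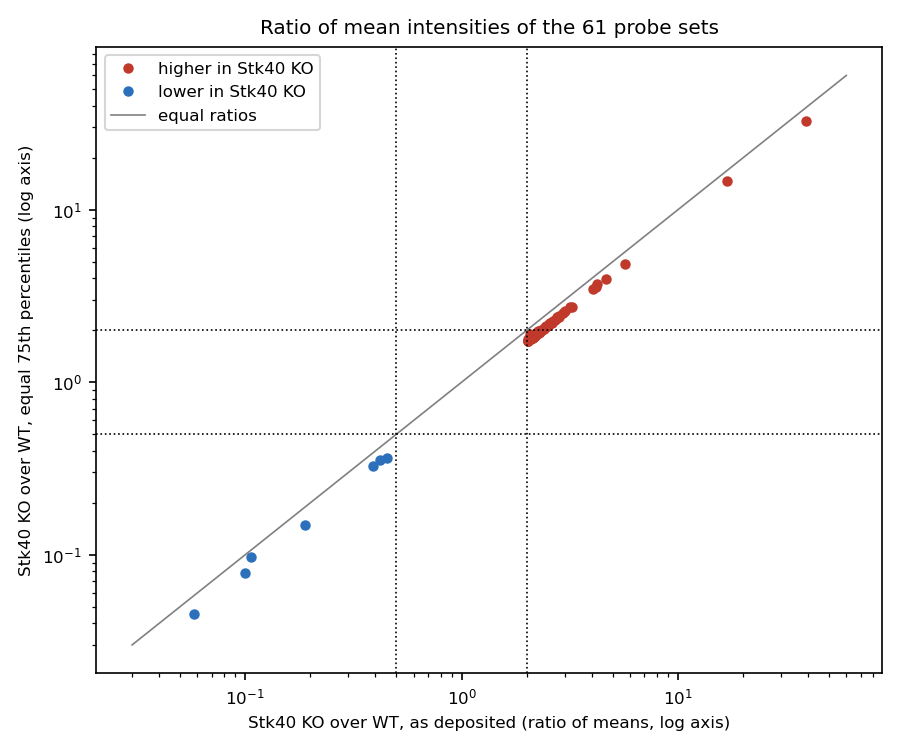
Each point is 1 of the 61 probe sets, with its ratio of mean intensity (Stk40 KO over WT) as deposited on the horizontal axis and with equal 75th percentiles on the vertical axis, both logarithmic, and dotted lines at 2-fold. All red points lie under the line of equal ratios, and 28 of the 54 stay above the upper dotted line, while all 7 blue points stay under the lower one.

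The intensities of the 2 genotypes did not overlap in 54 of the 54 higher probe sets and in 3 of the 7 lower ones. Among the 12773 probe sets with a mean above noise, 46.2% were higher without overlap and 1.36% were lower without overlap. With equal 75th percentiles the counts were 52 and 3, beside 17.3% and 31.2% of those probe sets. A fit over the array with limma tested 49 of the 61 probe sets and called 38 higher and 3 lower in Stk40 KO (Benjamini-Hochberg adjusted p threshold 0.05 over 12600 probe sets, of which 2.25% were called higher and 0.0873% lower). With equal 75th percentiles it called 22 higher, all of them among the 38, and 1 lower, beside 1.19% and 0.666% of 12319 probe sets. The calls as deposited included Rab28 as higher and Pgcp as lower, each far brighter on 1 array than on the others. With equal 75th percentiles neither was called. Nothing is read from these counts, because the genes had been chosen on the same contrast.

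Genes of the stefin family and of myeloid cells were the first group, with 11 genes, all higher in Stk40 KO livers by a median ratio of 2.57 (2.21 with equal 75th percentiles, and 1.63 with the 7 probe sets under noise in WT at their bound). Stefins are small cytosolic inhibitors of cysteine cathepsins, and in the mouse they form a cluster of similar copies on chromosome 16. Stfa2l1 read 1043 and 1569 in Stk40 KO livers, against 424 and 519 in WT livers, a ratio of 2.77. Stfa3 read 869 and 1184 in Stk40 KO livers, against 422 and 429 in WT livers, a ratio of 2.41. Both Stk40 KO arrays were above both WT arrays for these genes, and all 4 arrays were above noise. Csta, now named Csta1, read 212 and 251 in Stk40 KO livers, against 69.5 and 97.7 in WT livers, which is at least 1.63-fold higher. The Csta2 gene, listed as 2010005H15Rik, read 172 and 239.7 in Stk40 KO livers, against 60.8 and 78.8 in WT livers, at least 1.45-fold higher. The last 2 genes were under noise on both WT arrays and above it on both Stk40 KO arrays.

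These 4 stefin genes lie within 335 kb, at chr16:36119946-36455392 of GRCm38.p6, the assembly of the RefSeq tables used for positions and sequences. Over the 250 bases before the start of transcription, Stfa2l1 and Stfa3 were identical at 205 of 244 aligned bases (84.0%), Stfa2l1 and Csta at 125 of 156 (80.1%), and Stfa3 and Csta at 131 of 158 (82.9%). Alignments with Csta2 spanned no more than 64 bases. The stretches that the first 3 genes share are shown because they lie directly before 3 genes of 1 cluster that were all higher in Stk40 KO livers. Capitals mark the longest run found in all 3 stretches, ACTCAGCATTTCC, and a second run, TTTAAAACC, found in the first pair. The Csta stretch ends at the annotated start of Csta and does not reach the matching position.
Stfa2l1: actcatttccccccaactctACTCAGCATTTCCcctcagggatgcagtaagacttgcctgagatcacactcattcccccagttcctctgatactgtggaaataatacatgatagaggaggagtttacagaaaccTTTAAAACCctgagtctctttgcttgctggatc
Stfa3: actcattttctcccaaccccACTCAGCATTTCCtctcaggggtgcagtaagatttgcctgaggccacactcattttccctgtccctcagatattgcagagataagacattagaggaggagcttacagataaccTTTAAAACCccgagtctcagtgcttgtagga
Csta: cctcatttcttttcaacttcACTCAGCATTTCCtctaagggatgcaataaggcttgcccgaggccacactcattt
They read 5′ to 3′ on the strand of each gene, at chr16:36156644-36156810 on the plus strand, chr16:36455393-36455556 on the minus strand and chr16:36131190-36131264 on the minus strand. On either strand, the run ACTCAGCATTTCC occurred in 9 of 32851 RefSeq promoter stretches of 250 bases (0.0274%), and TTTAAAACC in 113 (0.344%). A match of letters is a description and does not show that a factor binds there. RNA of 1 stefin may also bind probes made for another. Only stretches before the genes were compared, not transcripts, and how far the 4 probe sets are independent was not tested.

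Among the myeloid genes outside the stefin cluster, Anxa1, a phospholipid-binding annexin that is abundant in neutrophils, read 806 and 1079 in Stk40 KO livers, against 405 and 470 in WT livers, a ratio of 2.16. Olfm4, a glycoprotein of neutrophil specific granules, read 649 and 1066 in Stk40 KO livers, against 267 and 339 in WT livers, a ratio of 2.83. For both genes all 4 arrays were above noise and the genotypes did not overlap. The remaining 5 genes were under noise on both WT arrays. They were 1100001G20Rik, now Wfdc21 and a member of the whey acidic protein family, Pla2g7, which inactivates platelet-activating factor, Ifitm6 of the interferon-induced transmembrane family, Msr1, a macrophage scavenger receptor, and Vnn3 of the vanin family. Their mean intensity in Stk40 KO livers lay between 161 for Vnn3 and 325 for 1100001G20Rik, against 28.1 for Vnn3 and 130.4 for 1100001G20Rik in WT livers. The bound was highest for 1100001G20Rik, at least 2.28-fold, and lowest for Vnn3, at least 1.13-fold, whose WT arrays read 26.6 and 29.6. For Vnn3, Stk40 KO replicate 1 was itself under noise at 139. After equal scaling 9 of the 11 genes were still at least 2-fold higher, and the exceptions were Anxa1 (1.84) and Ifitm6 (1.93).

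Genes of liver metabolism and transport were the second group, with 13 genes and 14 probe sets, all higher in Stk40 KO livers by a median ratio of 2.33 (2.0 with equal 75th percentiles, and 1.58 with the 10 probe sets under noise in WT at their bound). Cyp2d26, a cytochrome P450 of the drug-metabolizing type, read 436 and 515 in Stk40 KO livers, against 214 and 220.1 in WT livers, a ratio of 2.19. Slc13a3, a sodium-coupled carrier of dicarboxylates, had 3 probe sets in the table. The first read 343 and 443 in Stk40 KO livers, against 151 and 184 in WT livers, a ratio of 2.35. The second read 203 and 251 in Stk40 KO livers, against 95.5 and 129 in WT livers, at least 1.59-fold higher. The third was under noise on every array, with 79.5 and 95.8 in Stk40 KO livers and 25.9 and 36.7 in WT livers. All 3 put both Stk40 KO arrays above both WT arrays.

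Acsl4, which joins coenzyme A to long polyunsaturated fatty acids, read 278 and 280.2 in Stk40 KO livers, against 98.6 and 143 in WT livers, a ratio of 2.31. Onecut2, a transcription factor of liver and bile duct development, read 454 and 179 in Stk40 KO livers, against 96.4 and 143 in WT livers. Its Stk40 KO arrays stood further apart than its 2 genotypes did at the nearest values, and without Stk40 KO replicate 1 its ratio was 1.5 in place of 2.64. Aldh4a1, a mitochondrial enzyme of proline breakdown, read 251 and 227 in Stk40 KO livers, against 34.3 and 79.1 in WT livers, at least 1.68-fold higher. The plain ratio of Aldh4a1 was 4.22, and 6.97 without WT replicate 2. Both WT arrays of Aldh4a1 were under noise, which is why the bound is given beside the plain ratio. The genes Chdh (choline dehydrogenase, which makes betaine), Abca8a (a lipid transporter of the ABC family), Akr1d1 (a reductase of the bile acid and steroid pathways), Dhrs7 (a short-chain dehydrogenase), Gda (guanine deaminase) and Pon1 (the paraoxonase carried on high-density lipoprotein) were all under noise on both WT arrays. Their mean intensities were between 167 and 265 in Stk40 KO livers, against means between 62.4 and 124 in WT livers, and the bounds ran from at least 1.17-fold for Gda to at least 1.86-fold for Chdh. Akr1d1 read 254 and 191 in Stk40 KO livers, against 69.4 and 68.5 in WT livers. Gda read 135 and 198 in Stk40 KO livers, against 68.5 and 96.5 in WT livers, with Stk40 KO replicate 1 itself under noise. A dimmer probe set of Akr1d1 and one of Gda also stood in the table, both in the same direction, at 100.1 and 65.5 in Stk40 KO livers against 35.9 and 25.5 in WT livers for Akr1d1, and at 115 and 164 in Stk40 KO livers against 56.3 and 75.8 in WT livers for Gda.

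The neighbouring cytochrome P450 genes Cyp3a16 and Cyp3a41a, which in the mouse belong to the forms active around birth, lie 224 kb apart on chromosome 5. Cyp3a16 read 211 and 173 in Stk40 KO livers, against 45.3 and 46.4 in WT livers, at least 1.35-fold higher (plain ratio 4.19). Cyp3a41a read 163 and 179 in Stk40 KO livers, against 37.7 and 35.5 in WT livers, at least 1.20-fold higher (plain ratio 4.67). Both WT arrays were close to each other and under noise for both genes, and both Stk40 KO arrays were above noise. Their upstream stretches were identical at 231 of 246 aligned bases (93.9%). They are shown because 2 genes that were higher together have nearly the same stretch, which holds an HNF4-type motif, CAAAGTCCA, given in capitals. Stretches this alike share most short runs of letters, so that both hold the motif adds nothing. No motif of another factor was looked up, and a match of letters does not show that a factor binds there. HNF4 factors are nuclear receptors that drive many hepatocyte genes.
Cyp3a16: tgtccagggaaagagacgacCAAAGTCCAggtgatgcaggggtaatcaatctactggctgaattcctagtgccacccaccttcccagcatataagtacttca
Cyp3a41a: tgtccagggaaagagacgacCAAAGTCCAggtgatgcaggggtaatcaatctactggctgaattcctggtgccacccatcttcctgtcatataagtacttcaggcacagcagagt
The stretches are chr5:145469741-145469842 and chr5:145720137-145720251 of GRCm38.p6, both on the minus strand. The letters CAAAGTCCA occurred on either strand in 126 of 32851 RefSeq stretches (0.384%), and among the 41 genes described here that had a RefSeq stretch they were found before these 2. Copies as close as these can share RNA on their probes, so the intensities of Cyp3a16 and Cyp3a41a are not certain to be separate measurements. The brighter Cyp3a11, left out by the rule, read 654 and 585 in Stk40 KO livers, against 148 and 140.5 in WT livers. Its upstream stretch was identical at 83.7% of aligned bases with Cyp3a16 and at 82.9% with Cyp3a41a. Whether its RNA reaches their probes was not tested, and only upstream stretches were compared, not transcripts.

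**Figure D2:**
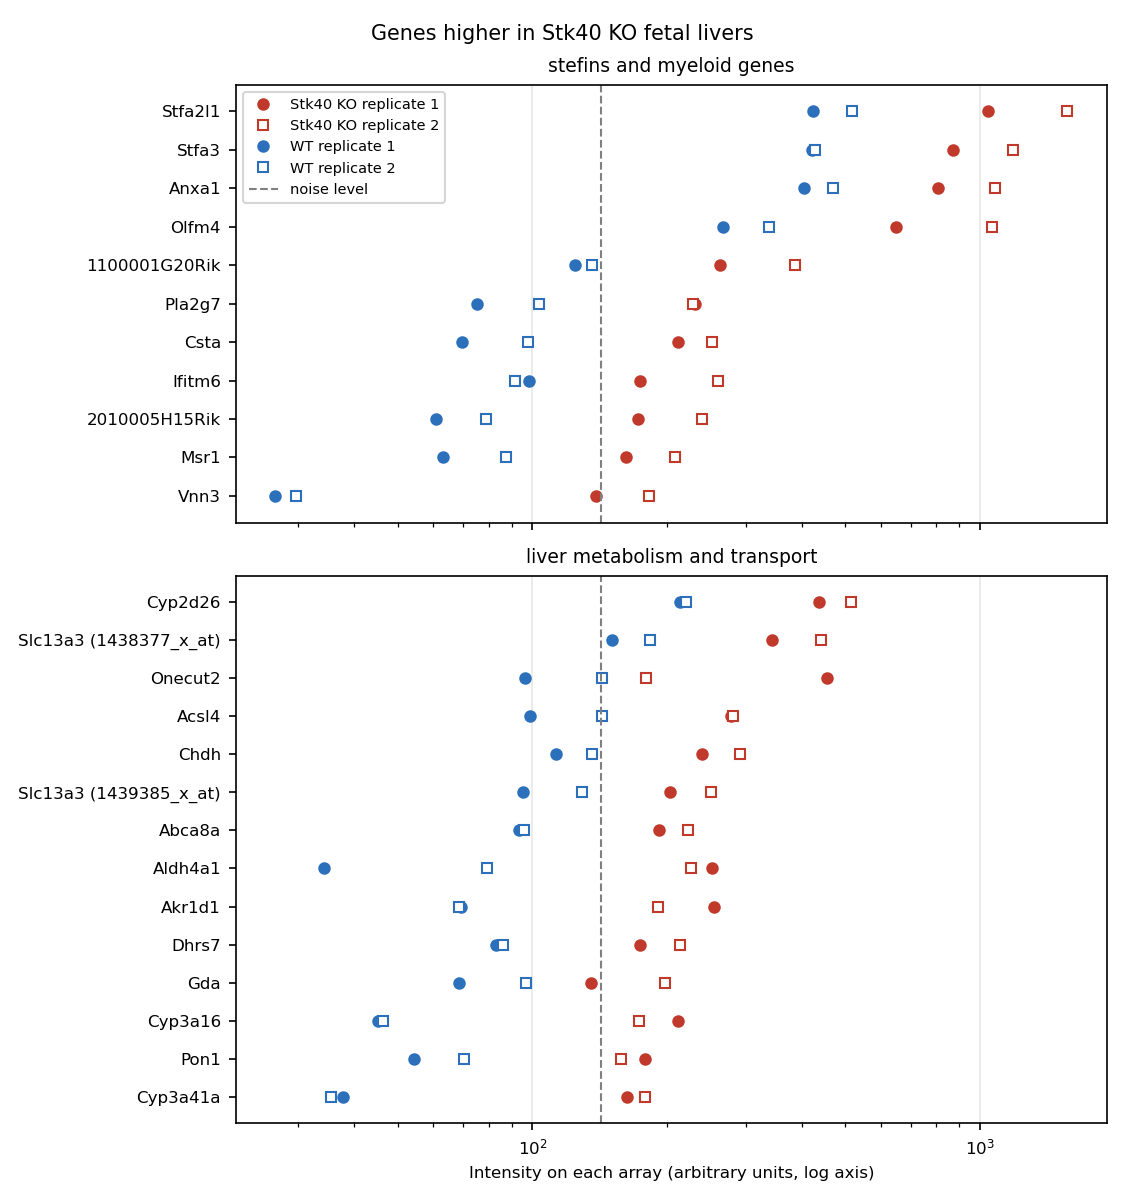
Intensity of each array (arbitrary units, logarithmic axis) for the stefin and myeloid genes above and the liver metabolism and transport genes below, with Stk40 KO arrays in red, WT arrays in blue, replicate 1 filled, replicate 2 open and the noise level of 143 dashed. For every probe set both red symbols lie to the right of both blue ones, and for 17 of the 25 probe sets both blue symbols are left of the dashed line.

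Genes of the extracellular matrix and secreted factors made up the third group, with 7 genes and 8 probe sets, all higher in Stk40 KO livers by a median ratio of 2.19 (1.42 with the 6 probe sets under noise in WT at their bound). With equal 75th percentiles the median was 1.87, and 2 of 8 were still at least 2-fold higher. Col1a1, the main chain of type I collagen, read 517 and 644 on its first probe set in Stk40 KO livers, against 267 and 291 in WT livers, a ratio of 2.08. Its second probe set read 180.3 and 207 in Stk40 KO livers, against 84.5 and 91.6 in WT livers, at least 1.36-fold higher. Both probe sets of Col1a1 separated the genotypes in the same direction, the second from WT arrays under noise. Ptn, a heparin-binding growth factor, read 368 and 372 in Stk40 KO livers, against 153 and 190 in WT livers, a ratio of 2.16. Prss23, a secreted serine protease, read 211 and 261 in Stk40 KO livers, against 82.5 and 119.7 in WT livers, at least 1.66-fold higher. A second, dimmer probe set of Prss23 read 43.6 and 61.4 in Stk40 KO livers, against 12.8 and 9.55 in WT livers, all 4 values under noise.

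The collagen chaperone Serpinh1 read 203 and 219.6 in Stk40 KO livers, against 83.2 and 111 in WT livers, at least 1.48-fold higher. Lox, the enzyme that crosslinks collagen and elastin, had a mean of 168 ± 27.9 in Stk40 KO livers and 72.8 ± 11.9 in WT livers (SD, n = 2 each), at least 1.18-fold higher. Ctgf, a matricellular protein now named Ccn2, averaged 162 ± 47.6 in Stk40 KO livers and 50.9 ± 8.55 in WT livers (SD, n = 2 each), at least 1.13-fold higher, with Stk40 KO replicate 1 itself under noise at 128. Gpc6, a glypican that binds growth factors at the cell surface, read 125 and 165 in Stk40 KO livers, against 42.7 and 100.5 in WT livers. Gpc6 lay just inside the threshold, its bound was at least 1.02-fold, and its plain ratio was 2.02, or 3.39 without WT replicate 2.

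Genes of the membrane, of cell junctions, of trafficking and of the cytoskeleton were the fourth group. Here 11 genes with 13 probe sets were higher in Stk40 KO livers, by a median ratio of 2.32 (1.99 with equal 75th percentiles, and 1.59 with the 7 probe sets under noise in WT at their bound), and 3 genes were lower. Myadm, a membrane protein first described in myeloid cells, read 1089 and 1388 on its first probe set in Stk40 KO livers, against 542 and 639 in WT livers, a ratio of 2.10. Its second probe set read 646 and 841 in Stk40 KO livers, against 319 and 391 in WT livers, a ratio of 2.09. Nrn1, a glycolipid-anchored protein known from neurite growth, read 1015 and 1091 in Stk40 KO livers, against 445 and 391 in WT livers, a ratio of 2.52. For these probe sets all 4 arrays were above noise and the genotypes stood clear of each other.

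Cap1, which recycles actin monomers and binds adenylyl cyclase in yeast, read 634 and 746 on its first probe set in Stk40 KO livers, against 200.5 and 258 in WT livers, a ratio of 3.01 (2.58 with equal 75th percentiles). Its second probe set read 194 and 196 in Stk40 KO livers, against 67.5 and 86.2 in WT livers, at least 1.37-fold higher. Both probe sets of Cap1 put both Stk40 KO arrays above both WT arrays. Cap1 was also the only one of the 57 genes within 5 Mb of Stk40, at chr4:122859048-122886076, 3.22 Mb from Stk40 at chr4:126103942-126141029. Within that distance lay 9 of the 1197 symbols of the 2-fold table that had a position, Stk40 included. The share of all genes that lie within it was not counted, so nothing is read from the 9. An embryo that is homozygous for a targeted allele can also be homozygous for flanking DNA of the strain the allele was made in. Whether such DNA reaches Cap1 was not tested. On the chromosome as a whole, 6.02% of the matched symbols of the table lay on chromosome 4, beside 6.06% of all protein-coding genes. These shares do not speak to the 5 Mb around Stk40.

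Ptgfrn, a membrane protein that binds tetraspanins, read 289 and 308 in Stk40 KO livers, against 133 and 159 in WT livers, a ratio of 2.04. The gap-junction protein Gjb2 read 237 and 215 in Stk40 KO livers, against 65.4 and 135 in WT livers, at least 1.59-fold higher, and its plain ratio of 2.25 was 3.46 without WT replicate 2. Acpl2, now Pxylp1 and a phosphatase of proteoglycan synthesis, Fam134b, now Retreg1 and a receptor for the breakdown of endoplasmic reticulum by autophagy, and Mal2, a protein of transcytosis in polarized cells, averaged between 185 and 205 in Stk40 KO livers, against means between 80.0 and 84.5 in WT livers. Their bounds were at least 1.44-fold for Acpl2 and Fam134b and at least 1.30-fold for Mal2. Fam134b read 174 and 235 in Stk40 KO livers, against 69.1 and 91.2 in WT livers. A dimmer probe set of Fam134b read 72.1 and 89.5 in Stk40 KO livers, against 39.5 and 37.7 in WT livers. Cav1, the coat protein of caveolae, and Enah, an actin regulator of the Ena/VASP family, lay just inside the threshold. Cav1 read 120.1 and 169 in Stk40 KO livers, against 64.7 and 78.2 in WT livers. Enah read 133 and 162 in Stk40 KO livers, against 48.7 and 86.4 in WT livers. In both genes Stk40 KO replicate 1 was itself under noise, and the bounds were at least 1.01-fold and at least 1.03-fold. The second probe set of Enah read 8.73 and 8.45 in Stk40 KO livers, against 3.82 and 0.091 in WT livers, all far under noise.

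**Figure D3:**
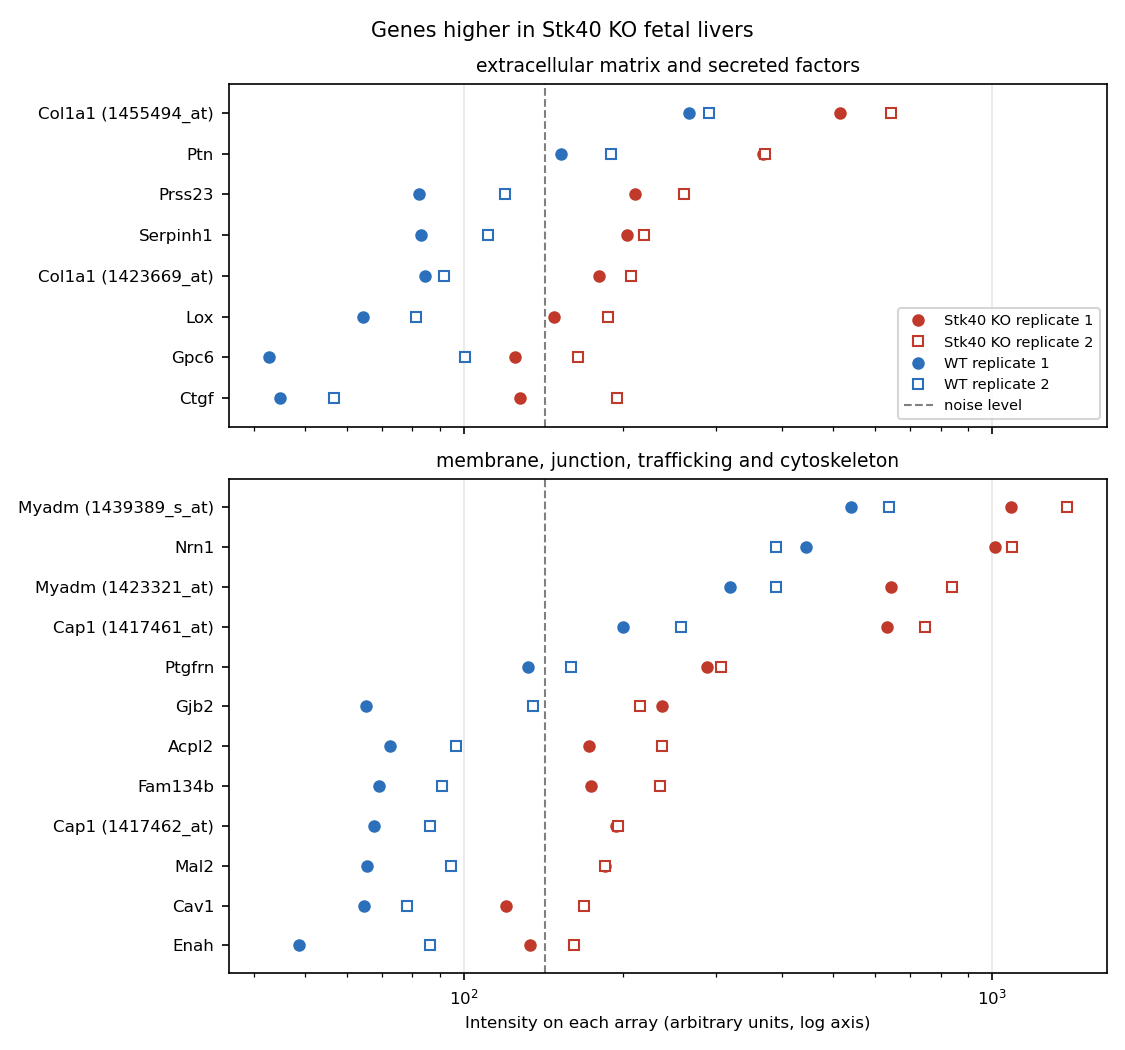
Intensity of each array (arbitrary units, logarithmic axis) for matrix and secreted genes above and for membrane, junction, trafficking and cytoskeleton genes below, with Stk40 KO arrays in red, WT arrays in blue, replicate 1 filled and replicate 2 open, and Rab28 left out because 1 array set its value. Both red symbols lie to the right of both blue ones for all 20 probe sets, and the red symbols of Ctgf, Cav1, Gpc6 and Enah straddle the dashed noise level of 143.

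The threshold itself cut through genes with like values. The 3 highest means just outside it were 141 for Map3k7, 141 for Rhou and 139.5 for Myo1e in Stk40 KO livers, and the 3 lowest just inside it were 144 for Cav1, 145 for Gpc6 and 147 for Enah.

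Of the genes with other functions, Hspa1b, an inducible heat shock protein of the Hsp70 family, had 3 probe sets in the table, all in the same direction. The probe set above noise read 155 and 225 in Stk40 KO livers, against 65.5 and 69.5 in WT livers, at least 1.33-fold higher. The others read 61.9 and 99.0 in Stk40 KO livers against 30.6 and 26.4 in WT livers, and 100.1 and 177 in Stk40 KO livers against 44.4 and 50.4 in WT livers. In all 3, Stk40 KO replicate 2 was the highest array. The stretch before Hspa1b was identical to that before its copy Hspa1a at 98.8% of bases. These probe sets may read both copies, but that stretch lies before the RNA. Transcripts and probes were not compared, so this was not tested. Hspa1b was the only one of 13 heat shock genes looked up that stood in the 2-fold table. Car8, a relative of the carbonic anhydrases without their activity, read 235 and 213 in Stk40 KO livers, against 90.8 and 120.4 in WT livers, at least 1.57-fold higher.

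Of the little-annotated symbols, Gm6484, now Angptl8 and a secreted regulator of lipoprotein lipase, read 211 and 287 in Stk40 KO livers, against 103 and 124 in WT livers, at least 1.75-fold higher. BC048546, which had no entry in the gene table, read 383 and 248 in Stk40 KO livers, against 154 and 141 in WT livers, a ratio of 2.14. AI117581, also without an entry, read 161 and 182 in Stk40 KO livers, against 68.5 and 62.5 in WT livers, at least 1.20-fold higher. The genotypes did not overlap in any of these 3 genes.

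Among the 7 lower genes, only Ddx6 rested on both arrays of both genotypes. Ddx6, an RNA helicase of mRNA decapping and storage, read 254 and 235 in Stk40 KO livers, against 574 and 590.1 in WT livers. All 4 arrays were above noise, the genotypes stood clear of each other, and the ratio was 0.42 (0.36 with equal 75th percentiles). Pqlc1, now Slc66a2 and a membrane protein of the PQ-loop family, read 140 and 19.9 in Stk40 KO livers, against 220.5 and 188 in WT livers. It was lower on both Stk40 KO arrays, but by very different amounts, and both were under noise, so that it was at least 1.43-fold lower. Its plain ratio of 0.39 was 0.68 without Stk40 KO replicate 2 and 0.0975 without Stk40 KO replicate 1.

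The other 5 lower genes were each far brighter on 1 WT array than on the rest. Pgcp, a secreted carboxypeptidase now named Cpq, read 170 and 187 in Stk40 KO livers, against 1727 and 161 in WT livers. Arrdc1, an arrestin-domain protein of extracellular vesicle budding, read 114 and 121 in Stk40 KO livers, against 2266 and 86.4 in WT livers. The unannotated symbol 9530067D14Rik read 53.2 and 57.5 in Stk40 KO livers, against 1855 and 50.7 in WT livers. In all 3 the single bright array was WT replicate 1, while WT replicate 2 lay below both Stk40 KO arrays. Dnm1, the neuronal dynamin of vesicle scission, read 113 and 111 in Stk40 KO livers, against 389 and 104 in WT livers, again with WT replicate 1 as the bright array. Prss2, a trypsinogen of the exocrine pancreas, read 23.5 and 25.9 in Stk40 KO livers, against 36.2 and 430.4 in WT livers, with WT replicate 2 as the bright array. Without WT replicate 1 the ratios of 4 of these genes turned to the other side of 1, at 1.11 for Pgcp, 1.36 for Arrdc1, 1.09 for 9530067D14Rik and 1.07 for Dnm1, and without WT replicate 2 that of Prss2 was 0.68 in place of 0.11. Without WT replicate 1 the ratio of Prss2 was 0.0575.

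Of the 54 higher probe sets, 4 also differed by more than 3-fold between the arrays of 1 genotype. The symbol 2310044G17Rik, now Cipc and a repressor of the circadian clock, read 1244 and 16.6 in Stk40 KO livers, against 16.3 and 16.0 in WT livers. Its ratio of 39.1, the highest of all 61, was 1.03 without Stk40 KO replicate 1 and 77.1 without Stk40 KO replicate 2. Rab28, a small GTPase of ciliated cells, read 1244 and 217 in Stk40 KO livers, against 155 and 207 in WT livers, and its ratio of 4.03 was 1.20 without Stk40 KO replicate 1 and 6.87 without Stk40 KO replicate 2. The symbol 8430408G22Rik, now Depp1 and a gene induced by FoxO factors, read 105 and 343 in Stk40 KO livers, against 9.45 and 17.1 in WT livers. Both of its Stk40 KO arrays were above both WT arrays, and only Stk40 KO replicate 2 was above noise. Its plain ratio of 16.9 was 7.88 without that array and 25.9 without Stk40 KO replicate 1. Rnf219, an E3 ubiquitin ligase now named Obi1, read 170 and 172 in Stk40 KO livers, against 8.27 and 157 in WT livers. Its ratio of 2.07 was 1.09 without WT replicate 1 and 20.7 without WT replicate 2, and a second probe set of Rnf219 was near 0 on all 4 arrays (-1.09 and -1.36 in Stk40 KO livers, 1.09 and 4.55 in WT livers).

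**Figure D4:**
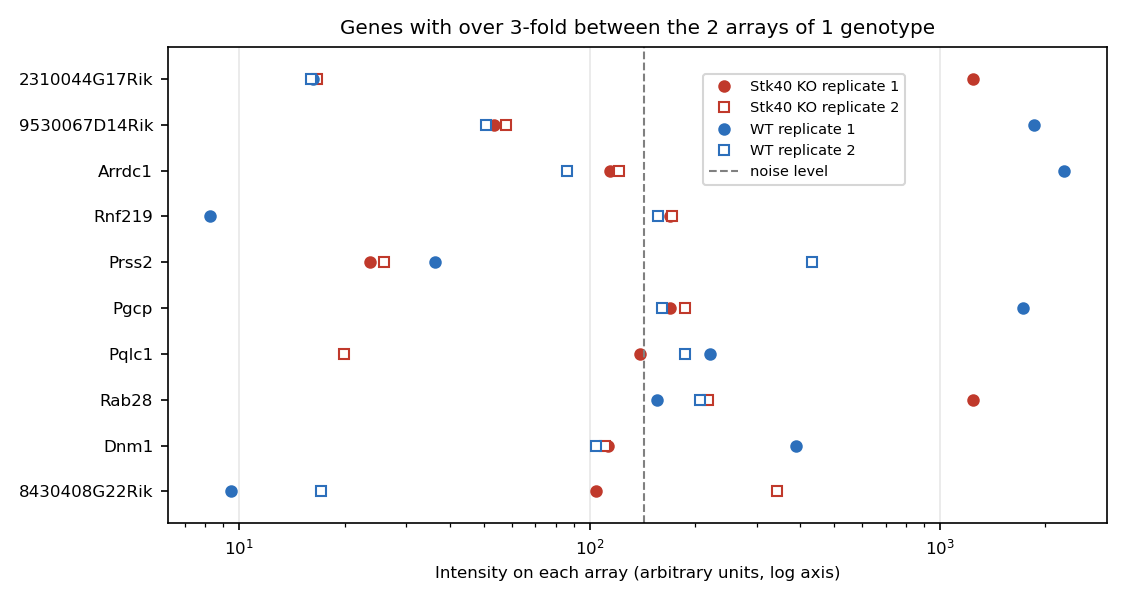
Intensity of each array (arbitrary units, logarithmic axis) for the 10 genes whose 2 arrays of 1 genotype differed by more than 3-fold, with Stk40 KO arrays in red, WT arrays in blue, replicate 1 filled, replicate 2 open and the noise level of 143 dashed. For 8 of the 10 genes 1 symbol lies far right of the other 3, which is a WT array for 5 genes and a Stk40 KO array for 3 genes.

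Brightness on 1 array alone was rare over the array as a whole. Of 13261 probe sets above noise on any array, 4 were at least 3 times brighter on Stk40 KO replicate 1 than on each other array, 3 on Stk40 KO replicate 2, 10 on WT replicate 1 and 4 on WT replicate 2. Of these 21 probe sets 8 are among the genes described here. Whether the bright values come from the pooled livers, from RNA of other tissue or from the array surface was not tested.

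The distance between the replicates was not free of the choice of genes. The choice used the mean of the 2 arrays of a genotype, and the authors had removed probe sets inconsistent within a genotype. With equal 75th percentiles, the stefin and myeloid genes were higher on Stk40 KO replicate 2 than on Stk40 KO replicate 1 in 11 of 11 cases, with a median ratio of 1.38. The matrix genes were so in 8 of 8 (median 1.26), the membrane and cytoskeleton genes in 11 of 13 (median 1.19) and the liver metabolism genes in 9 of 14 (median 1.14). Over 10721 probe sets above noise on all 4 arrays, 66.9% were higher on Stk40 KO replicate 2, with a median ratio of 1.04. Those probe sets were not chosen by fold and, unlike most genes here, were above noise in WT. They are therefore not a like-for-like background. Between the WT replicates the medians of the 4 groups were 1.02, 1.06, 1.07 and 1.01 in the same order, beside 1.03 over those probe sets. Because 7 of the 11 stefin and myeloid probe sets were under noise on both WT arrays, the WT ratios are mostly ratios of values within noise, and no test between the genotypes was run.

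**Figure D5:**
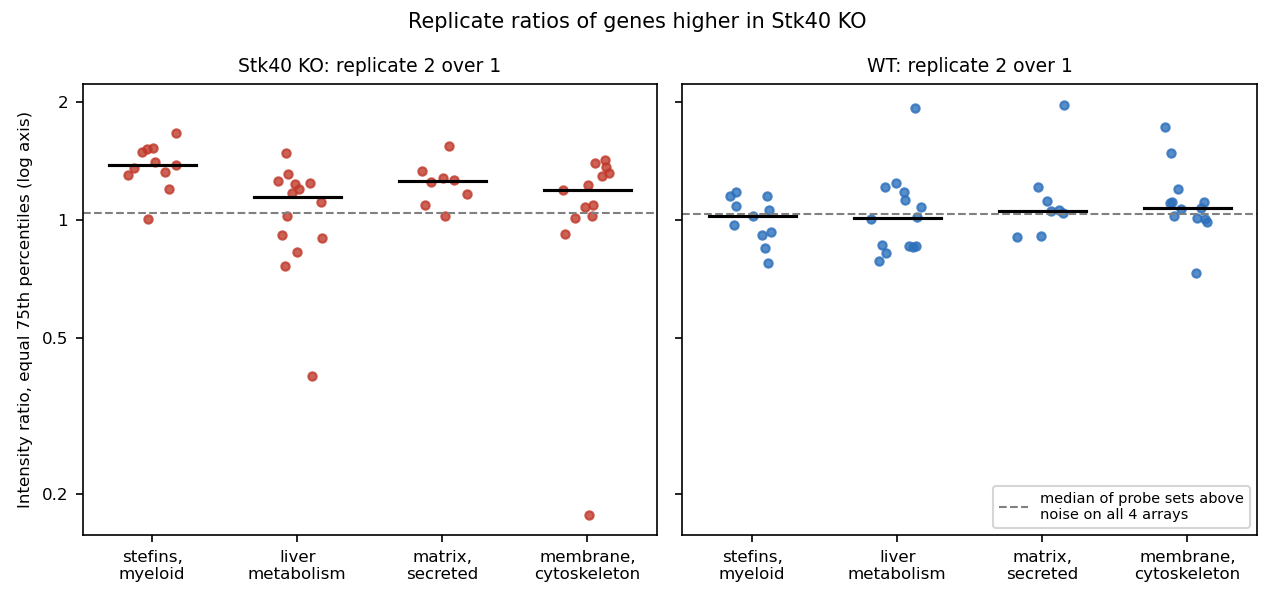
Intensity of replicate 2 over replicate 1 (equal 75th percentiles, logarithmic axis) of each higher probe set, for Stk40 KO on the left and WT on the right, by functional group, with medians as black bars and, dashed, the median of 10721 probe sets above noise on all 4 arrays. On the left the bar of the stefin and myeloid genes is at 1.38 and the dashed line at 1.04, while many WT values on the right were under noise.

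Lists of cell types and pathways put these genes beside their wider families. The sizes of the lists count symbols. Some lists hold an old and a new symbol of the same gene, such as 1100001G20Rik and Wfdc21 or Ctgf and Ccn2. The number of genes looked up is then smaller than the size given. Most of the lists hold genes described here, which stand in the 2-fold table by choice, so part of each such count was fixed in advance. Genes outside the table had no names here, so no share over all genes can stand beside the counts. Of 1345 named symbols in the 2-fold table, 70.6% were higher in Stk40 KO on every probe set listed. Among 25 neutrophil genes 12 stood in the table and 12 were higher, 4 of them described here, and the 8 others (Camp and Ngp among them) summed to 4399 and 6216 in Stk40 KO livers, against 1817 and 1919 in WT livers. Among 20 macrophage and monocyte genes 5 stood in the table, all higher, with Msr1 and Pla2g7 described here. The summed intensity of the 3 others, Cd163, Lyz2 and Marco, was 1925 and 1934 in Stk40 KO livers, against 802 and 963 in WT livers, and Lyz2 carried nearly all of it. The neutrophil sum was higher on Stk40 KO replicate 2, as it was for the stefins, while the macrophage sum was even between the Stk40 KO arrays. The part that a larger share of granulocytes plays in the stefin and myeloid values was not tested.

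Of 44 genes of hepatocyte metabolism 21 stood in the table, 20 higher and 1 lower, and 13 of them are described here. These 13 are all the genes of the second group, so their place in the table was set by the choice of genes. The lower one was Onecut1, the relative of Onecut2, with 7.55 and 8.91 in Stk40 KO livers, against 17 and 27.1 in WT livers, all under noise. The summed intensity of the 8 genes not described here was 970 and 905 in Stk40 KO livers, against 276 and 294 in WT livers. Cyp3a11 alone gave 654 and 585 of these sums in Stk40 KO livers, against 148 and 140.5 in WT livers, and it was the only one of the 8 with a genotype mean above noise. Of 31 mesenchymal and stellate cell genes 10 stood in the table, 10 higher and 6 of them described here. The 4 others, Acta2, Col6a2, Cyr61 and Des, summed to 143 and 272 in Stk40 KO livers, against 63.4 and 71.6 in WT livers, and none reached the noise level as a genotype mean. Of 20 targets of the YAP and SRF pathways, which couple cell tension to transcription, 8 stood in the table, all higher. Ctgf, Cav1 and Enah are described here, each with Stk40 KO replicate 1 under noise. The 5 others, Acta2, Actg2, Amotl1, Ankrd1 and Cyr61, summed to 189 and 388 in Stk40 KO livers, against 70.6 and 149 in WT livers. None of them reached the noise level as a genotype mean. Acta2, Ctgf and Cyr61 also stand in the mesenchymal list, so the 2 lists are not separate. None of 19 erythroid genes stood in it under a single symbol. Gene names came only from that table, so markers such as Alb or the globins, which would check the label of the tissue, could not be read by name here.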

How the data were processed

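Intensities of 4 arrays were used, 2 for Stk40 KO and 2 for WT, each on RNA pooled from 6 livers, grouped by GEO's labels. The authors deposited 1 linear intensity per probe set and array, negative values included. The submitters' processing notes name MAS5, with no version given in the sources used here. In these values 99.9% were multiples of 1/11 (tolerance 0.001), the step of a mean over 11 probe pairs, and no scaling between arrays was found. A second deposited table held the same intensities of 1467 probe sets, with values under 0.1 set to 0.1, beside the authors' means, fold changes and direction columns, which were not used. All 1467 matched the series values within 0.01. It is the only source of gene names, and 54 of the 57 symbols matched RefSeq's GRCm38.p6 gene table (42 by symbol, 12 by synonym). No per-sample column was left unused (0).

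The genes, functional groups and marker lists were chosen with earlier results of these data known. The noise level (143) is the 95th percentile of the sizes of negative values on probe sets other than controls. All 4 values are printed for lower genes, for the 4 with the highest mean in each group, for genes with several probe sets, for genes near the noise level and for those that differed over 3-fold within a genotype. The other genes given with values were added for their group. Ratios are of means over 2 arrays. The limma fit (limma 3.58.1, R 4.3.3, trended eBayes) used log2 of intensities floored at the noise level, for the 12600 probe sets that exceeded it on 2 or more arrays. It was checked on simulated data. Arrays were rescaled to equal 75th percentiles of positive values, or quantile normalized, as alternatives. The precision is limited by 2 arrays per genotype. The labels call the arrays biological replicates, each a pool. As deposited, limma took the variance of every probe set from the trend over intensity alone. Those p-values therefore do not measure the spread of a single probe set between its pools. With equal 75th percentiles that spread counted in part. Promoter stretches came from RefSeq, which held 41 of the 57 genes, and were aligned with Biopython.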

Additional observations from a re-analysis of the deposited data

How the results depend on the processing

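The count of higher genes changed with the scaling, the floor and the fold threshold. The 54 higher and 7 lower probe sets of the 2-fold rule became 28 and 7 with equal 75th percentiles, 27 and 7 after quantile normalization, 17 and 5 with values floored at the noise level, and 10 and 4 at 3-fold. Leaving out 1 array gave 36 to 54 higher and 3 to 7 lower, the lowest counts without WT replicate 1. Non-overlapping probe sets, counted in either direction, numbered 57, with 55 after equal 75th percentiles and 56 after quantile normalization. Leaving out 1 array gave 57 to 61, but a lone array overlaps less easily, and no share over all probe sets was counted for this. The 61 without WT replicate 1 include the 4 whose direction then reversed. limma called 38 higher and 3 lower, 22 and 1 with equal 75th percentiles, 23 and 1 after quantile normalization (1.57% and 0.486% of all probe sets tested), and 13 and 2 with only probe sets above noise on all 4 arrays (0.821% and 0.028%), where 15 of the 61 were tested. Leaving out 1 array gave 0 to 41 higher and 0 to 2 lower. Without Stk40 KO replicate 1 it called 0 and 0 (15 and 2 at an unadjusted p under 0.05), beside 0.0246% and 0.00822% of all probe sets tested. Without Stk40 KO replicate 2 it called 2 and 0 (0.0323% and 0.00806%), without WT replicate 1 it called 34 and 1 (3.65% and 0.528%), and without WT replicate 2 it called 41 and 2 (67.6% and 0.476%). The lone array was then assumed to vary like the other genotype.

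The ratios of 4 genes reversed without WT replicate 1, to 1.09 for 9530067D14Rik, 1.36 for Arrdc1, 1.11 for Pgcp and 1.07 for Dnm1. Without WT replicate 2 they were 0.0298, 0.052, 0.104 and 0.287 in the same order. No ratio reversed under the other alternatives. The labels number the replicates 1 and 2 in both genotypes. Deviations of arrays with the same number correlated at 0.24 over 10721 probe sets, from 2 pairs only, too few to show whether the numbers pair the arrays, and they were not treated as pairs. With the replicate number as a block limma called 40 higher and 3 lower (2.48% and 0.0952% of all probe sets tested), and with the block and equal 75th percentiles, an alternative chosen after seeing the data, 35 and 2 (4.85% and 6.09%). The cause of these changes was not tested. Low intensity is a limit, since 36 of 54 higher and 5 of 7 lower probe sets were under noise on both arrays of the dimmer genotype.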

Other observations

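Of the 61 probe sets, 6 carried the suffix that marks probes shared with other sequences (x_at: Acpl2, Prss23, Serpinh1, both Slc13a3 sets and the lower Prss2) and 4 the suffix for probes shared by several transcripts (s_at: Acsl4, Chdh, Myadm and the lower Arrdc1). Of 12 genes of smooth and striated muscle 4 stood in the 2-fold table, Des, Myh3, Myh8 and Myog, and they summed to 88.2 and 37.5 in Stk40 KO livers, against 8 and 4.73 in WT livers, all under noise. Of 29 exocrine pancreas and gut genes only Vil1 and Prss2 stood in it, Vil1 higher at 13.5 and 24.7 in Stk40 KO livers, against 5.09 and 13.5 in WT livers. Of 11 genes of brain and neurons 5 did, 4 higher (Car8, Nrn1, Stmn2 and Syt1) and Dnm1 lower. Stmn2 read 6.91 and 22.8 in Stk40 KO livers, against 2.55 and 2.64 in WT livers. Syt1 read 1.09 and 4.91 in Stk40 KO livers, against -1.73 and -1.18 in WT livers. Both genes were far under noise, and Dnm1 was lower only through WT replicate 1. Of 12 endothelial genes Cav1 and Emcn stood in the 2-fold table, both higher. Emcn read 51.8 and 54.7 in Stk40 KO livers, against 25.2 and 27.9 in WT livers. Other pairs of neighbours were Vnn3 and Ctgf, 726 kb apart on chromosome 10, and Ptn and Akr1d1, 719.8 kb apart on chromosome 6, all 4 higher in Stk40 KO livers.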
